A study of Drosophila melanogaster with 4 samples.

Results

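The enzymes and transporters that make, move and use dopamine in Drosophila were followed in early pupae with reduced Dop1R2, a D1-like dopamine receptor. The rule that defines the set goes by role. It holds 10 genes in order from the amino acid tyrosine, namely ple, Ddc, Pu, e, b, t, y, amd, Vmat and DAT. Of these, 9 have at least 1 probe set that carries their name alone, out of 10843 genes so named on the array, which gives 11 of the 13966 probe sets used. No probe set carried the name b, so b (black), which makes the beta-alanine that e joins to dopamine, was not analysed here.

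Transcripts of whole pupae were read with 4 Affymetrix DrosGenome1 arrays, 2 for Dop1R2 RNAi and 2 for control. Each array received RNA from a pool of 10 to 20 pale pupae grown at 29 °C, so 1 value stands for a pool and not for an animal. The arrays of a group are labelled as biological replicates. Dop1R2 RNAi pupae were UAS-dsDop1R2/+;Act5C-Gal4/+, in which the actin promoter of the driver expresses a hairpin against Dop1R2 in all tissues. Control pupae were w1118;Act5C-Gal4/+ in the labels, with the same driver and no hairpin. In a legend of the study the Dop1R2 RNAi genotype is written with w1118 too. That legend gives other controls, w1118;UAS-dsDop1R2/+;TM6B/+, with the hairpin and a balancer chromosome in place of the driver. The labels do not say which hairpin insertion line was used. The Act5C-GAL4 stocks in the study's methods carry the y1 allele of y, and TM6B balancers commonly carry a mutant allele of e. The part of these alleles in the signals of y and e was not tested. No probe set carries the name Dop1R2 alone, so the transcript aimed at by the hairpin was not analysed here.

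In insects, tyrosine is hydroxylated to dopa, and dopa is decarboxylated to dopamine. In neurons dopamine is loaded into vesicles and taken back up after release. In the epidermis it is turned into N-acetyldopamine and N-beta-alanyldopamine, whose oxidation products cross-link and tan the cuticle, or into black melanin. The puparium is hardened, and the pupal cuticle is laid down, within the stages around pupation.

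The ple transcript, for tyrosine hydroxylase, was 7.98-fold higher in Dop1R2 RNAi pupae than in controls. It was the only member probe set whose difference passed the test over the whole array. The next enzyme, dopa decarboxylase (Ddc), the vesicular monoamine transporter (Vmat) and t, which releases dopamine from its beta-alanine conjugate, also had higher signals on both Dop1R2 RNAi arrays than on both control arrays, by less than 2-fold and without passing. The beta-alanyl-dopamine synthase e and the pigment gene y had lower signals on both Dop1R2 RNAi arrays than on both control arrays, again without passing. The groups did not overlap, in either direction, for 45.1% of all tested probe sets. Signals are MAS5 intensities, in which each array is scaled to the same trimmed mean, and differences were tested with limma on log2 signals. A probe set passed at an adjusted p of less than 0.05. In RNA from whole animals, fewer cells of a type and less RNA per cell cannot be told apart.

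**Figure D1:**
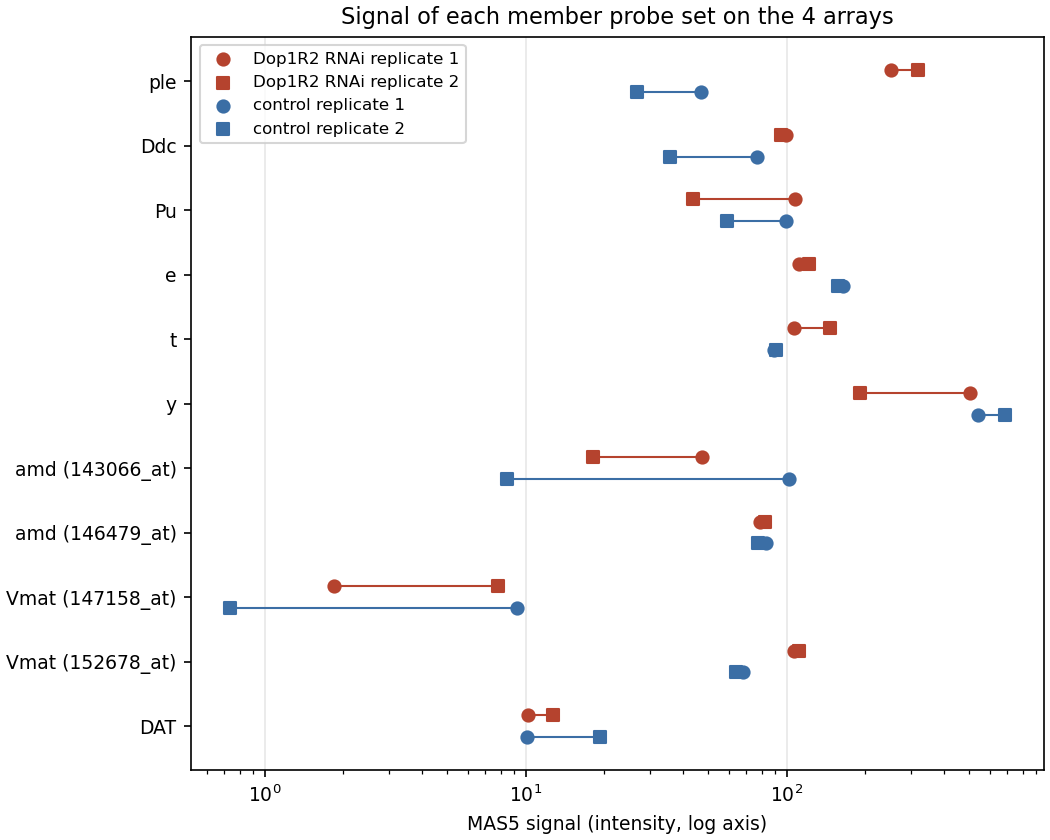
MAS5 signal (log axis) of the 11 member probe sets on each of the 4 arrays, with the arrays of a group joined by a line. The Dop1R2 RNAi arrays at 251 and 317 stand apart from the control arrays at 46.9 and 26.6 for ple, while the groups overlap for Pu, DAT, both amd probe sets and the dimmer Vmat probe set.

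Median signals after scaling were 43.4 and 45.0 in Dop1R2 RNAi, against 43.4 and 44.5 in controls. Since each array was scaled to the same trimmed mean, these medians cannot show whether the arrays were alike in brightness before scaling. Over probe sets, which are no independent replicates, log2 signals of the Dop1R2 RNAi pair correlated at 0.945, those of the control pair at 0.936, and those of arrays from different groups at 0.905 to 0.935. Ratios of 3' to 5' control probes, a sign of RNA integrity, were 3.88 and 3.90 for Gapdh in Dop1R2 RNAi and 4.61 and 3.97 in controls, and 3.98 and 2.82 for eIF-4a in Dop1R2 RNAi and 4.59 and 4.24 in controls. Those of actin went with the replicate number, at 2.07 and 1.61 in Dop1R2 RNAi and 2.07 and 1.61 in controls. The part of RNA integrity in the signals was not tested. Lsp2, a storage protein of the fat body, was among the brightest signals on all 4 arrays (7317 and 8815 in Dop1R2 RNAi, 8934 and 8972 in controls). Sgs3, a glue protein of late larval salivary glands, gave 2.39 and 3.71 in Dop1R2 RNAi and 3.60 and 2.27 in controls, near the bottom of each array. Neuronal markers were dim, and 2 of the 8 with a probe set could be tested. Of all probe sets, 8749 were at or above the 40th percentile on at least 2 arrays and were tested, among them 9 of the 11 member probe sets, for 8 genes.

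Among the 9 tested member probe sets, 1 was called higher in Dop1R2 RNAi pupae and 0 were called lower. Over all tested probe sets, 1.38% were called higher, 0.103% lower and 1.49% in either direction. At an unadjusted p under 0.05, limma gave 3 members higher (ple, Ddc and Vmat) and 0 lower, where 7.53% of all probe sets passed as higher, 5.51% as lower and 13% in either direction. By the methods' t-test, 2 were higher (ple and Vmat) and 1 was lower (e) before adjustment and 0 passed after it. The groups did not overlap for 6 of the 9, 4 with both Dop1R2 RNAi arrays higher and 2 with both lower, and of all tested probe sets 21.1% had both higher and 24% both lower. The median log2 fold change of the 9 was 0.01, beside -0.04 over all tested probe sets. Without ple the members lay between -0.98 and 0.90. Single arrays moved these counts. Without control replicate 2, 0.309% of all probe sets were called higher and ple was no longer among them, and without Dop1R2 RNAi replicate 1, 4.08% were called higher and 3.37% lower, with y among the lower ones. Without Dop1R2 RNAi replicate 2 the shares were 1.92% higher and 1.3% lower, and without control replicate 1 they were 0.389% higher and 0.0114% lower.

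**Figure D2:**
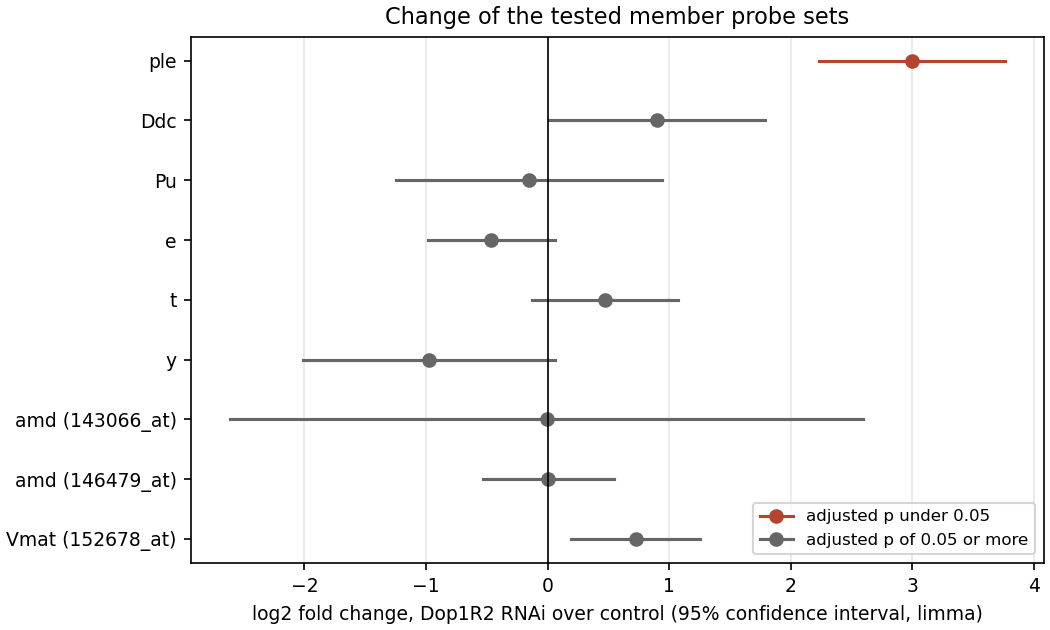
Log2 fold change of each tested member probe set, Dop1R2 RNAi over control, with its 95% confidence interval from limma. The interval of ple (2.23 to 3.76) lies far from 0, those of Ddc (0.01 to 1.79) and Vmat (0.19 to 1.25) lie above it, and the other 6 include it.

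The enzyme encoded by ple catalyses the first and rate-limiting step, from tyrosine to dopa, and its product serves both dopaminergic neurons and the tanning epidermis. Its probe set 143559_at gave 251 and 317 in Dop1R2 RNAi, against 46.9 and 26.6 in controls. The lowest Dop1R2 RNAi signal was 5.35-fold the highest control signal, and the most distant pair of arrays differed 11.9-fold. Group means were 284 ± 46.7 in Dop1R2 RNAi and 36.7 ± 14.3 in controls (SD, n = 2 arrays each). Within each array ple stood at the 88.8th and 91.4th percentile of all probe sets in Dop1R2 RNAi pupae, and at the 52.2nd and 36.4th in controls. The log2 fold change was 2.996 with a standard error of 0.32 (limma, adjusted p = 0.00732), and the 95% interval of the fold ran from 4.69 to 13.6. Of all tested probe sets, 57 had a larger positive log2 fold change and 0.674% a larger change in either direction.

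The size of the ple difference rested partly on the dim control signals. With control replicate 2 left out, the log2 fold change was 2.59 and the call was lost (limma, adjusted p = 0.0589). It was 3.40 without control replicate 1 (adjusted p = 0.0355), 3.16 without Dop1R2 RNAi replicate 1 and 2.83 without Dop1R2 RNAi replicate 2. Each of these fits assumes that the lone array varies like the arrays of the other group. Adding 32 to every signal, which damps ratios of dim values, gave 2.21 (adjusted p = 0.00498). The 2 control arrays differed 1.76-fold from each other and the 2 Dop1R2 RNAi arrays 1.26-fold.

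Dopa decarboxylase, the product of Ddc, turns dopa into dopamine and also makes serotonin. Ddc (152611_at) gave 99.5 and 95.4 in Dop1R2 RNAi pupae, against 76.8 and 35.5 in controls. Both Dop1R2 RNAi arrays lay above both controls, but the controls differed 2.16-fold from each other, and the closest pair across groups differed 1.24-fold. Means were 97.4 ± 2.92 in Dop1R2 RNAi and 56.1 ± 29.2 in controls (SD, n = 2 each), a log2 fold change of 0.90 with a standard error of 0.38 (adjusted p = 0.376). Without control replicate 2 it was 0.34, and without control replicate 1 it was 1.46. The lower of the control signals was on the same array as the lower control signal of ple. That array, control replicate 2, held the lowest signal for 5 of the 9 tested member probe sets, beside 15.9% of all tested probe sets.

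Pu (Punch) encodes GTP cyclohydrolase I, which starts synthesis of the tetrahydrobiopterin cofactor that tyrosine hydroxylase needs, and of the pteridine eye pigments. Its signals (154812_at) were 107.5 and 43.7 in Dop1R2 RNAi, against 98.8 and 58.9 in controls. The groups overlapped, and arrays of the same group differed more (2.46-fold in Dop1R2 RNAi and 1.68-fold in controls) than the group means, 75.6 ± 45.1 in Dop1R2 RNAi and 78.9 ± 28.2 in controls (SD, n = 2 each). The log2 fold change was -0.15 with a 95% interval of -1.25 to 0.94 (adjusted p = 0.917). It ran from -0.80 to 0.50 as each array was left out. The log2 fold change of ple, 2.996, lies outside the interval.

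The enzymes that shunt dopamine between pigments are e (ebony), which joins beta-alanine to dopamine for tan sclerotin, and t (tan), which reverses that step. The signals of e (152932_at) were 111 and 121 in Dop1R2 RNAi, against 164 and 157 in controls. The groups did not overlap, and arrays within a group were close, 1.09-fold apart in Dop1R2 RNAi and 1.04-fold in controls. The log2 fold change was -0.46 with a standard error of 0.22 (95% interval -0.99 to 0.06, adjusted p = 0.430). For t (144739_at) the signals were 106 and 147 in Dop1R2 RNAi, against 89.1 and 91.2 in controls. The groups did not overlap here either, with t on the higher side in Dop1R2 RNAi (0.47, standard error 0.25, interval -0.13 to 1.07, adjusted p = 0.474). The signs for both genes stayed as they were when any 1 array was left out, between -0.52 and -0.40 for e and between 0.24 and 0.70 for t.

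The product of y (yellow) is secreted into the cuticle and is required for black melanin. Its probe set 143416_at gave 503 and 190.1 in Dop1R2 RNAi, against 541 and 685 in controls. Both Dop1R2 RNAi signals were below both control signals, but replicate 1 nearly reached the lower control while replicate 2 was far below it. The 2 Dop1R2 RNAi arrays differed 2.64-fold from each other, and the spread of y within groups was wider than that of 95.1% of tested probe sets. The log2 fold change was -0.98 with a standard error of 0.44 (95% interval -2.01 to 0.06, limma, adjusted p = 0.399). Without Dop1R2 RNAi replicate 1 it was -1.68 and passed (adjusted p = 1.25e-05), and without Dop1R2 RNAi replicate 2 it was -0.28. The size of the y difference thus depended on which Dop1R2 RNAi pool was read.

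**Figure D3:**
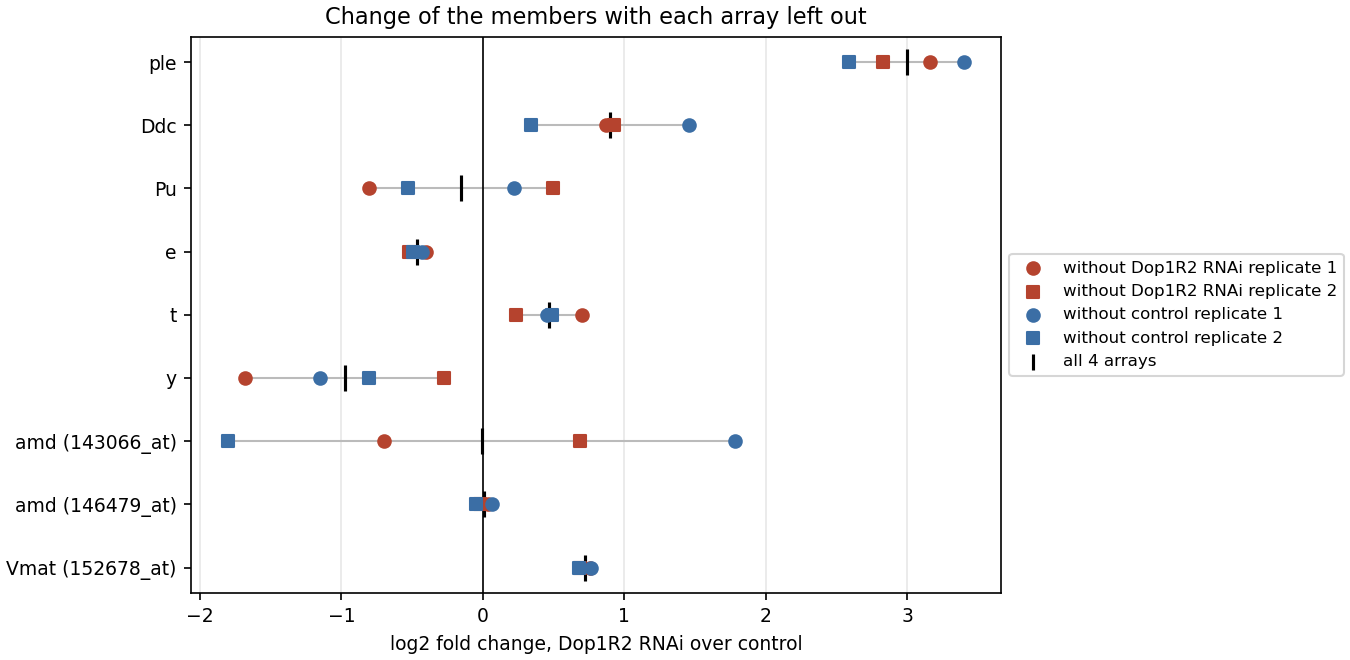
Log2 fold change of each tested member probe set, Dop1R2 RNAi over control, with each array left out in turn (coloured points) and with all 4 arrays (black bars). The estimates of ple span 2.59 to 3.40 and those of Vmat 0.68 to 0.76, while Pu and both amd probe sets cross 0 and y spans -1.68 to -0.28.

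The gene amd (alpha methyl dopa-resistant) encodes a relative of dopa decarboxylase that is required in the cuticle-forming epidermis, and it is read by 2 probe sets. The first, 143066_at, gave 47.2 and 18.0 in Dop1R2 RNAi, against 102 and 8.46 in controls. The control arrays differed 12.0-fold from each other, a spread wider than that of 99.9% of tested probe sets, and the 95% interval of the log2 fold change ran from -2.61 to 2.60. The second, 146479_at, gave 79.1 and 82.4 in Dop1R2 RNAi, against 83.5 and 77.3 in controls. Its 4 arrays lay close together and overlapped, with a log2 fold change of 0.01 and an interval of -0.53 to 0.54 (adjusted p = 0.997). The probe sets of this gene thus gave the same central value with very different error.

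Vmat loads dopamine and other amines into vesicles. Its probe set 152678_at gave 106 and 112 in Dop1R2 RNAi, against 68.0 and 64.1 in controls. All 4 pairs of arrays across groups differed by 1.56-fold to 1.74-fold, and arrays within each group by 1.05-fold and 1.06-fold. Means were 109 ± 3.76 in Dop1R2 RNAi and 66.0 ± 2.73 in controls (SD, n = 2 each), with a log2 fold change of 0.72 and a standard error of 0.22 (adjusted p = 0.255). This probe set had the narrowest within-group spread of the tested members, wider than that of only 3.77% of all tested probe sets, and limma draws so small a spread toward that of probe sets of like intensity. A second Vmat probe set, 147158_at, gave 1.84 and 7.84 in Dop1R2 RNAi, against 9.23 and 0.735 in controls, below the 20th percentile of each array, and was not tested. DAT, the plasma membrane transporter that takes dopamine back up, was also too dim to test. Its signals (147316_at) were 10.2 and 12.7 in Dop1R2 RNAi, against 10.1 and 19.3 in controls, and the groups overlapped.

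The genes around these members on the chromosome were looked up in the Release 6 plus ISO1 MT annotation, 5 protein-coding genes on each side. None of the tested neighbours of any member was called in either direction by limma. Around ple, 7 of the 10 neighbours could be tested, through 8 probe sets. Their log2 fold changes lay between -0.61 and 0.63, beside 2.996 for ple, and 2 of the probe sets passed before adjustment. Ddc and amd lie 2 genes apart, and the Ddc neighbours, amd included, lay between -0.61 and 0.01, beside 0.90 for Ddc, with 1 probe set that passed before adjustment. Both neighbours of y that could be tested had log2 fold changes of -0.62 and -0.02, beside -0.98 for y. Around b, which has no probe set of its own, 5 neighbours ran from -0.77 to 0.97 and 1 passed before adjustment.

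The rest of the pathway was read from 8 lists with 68 genes, of which 60 have a probe set and 37 were tested. Limma called 0 of the 37 in either direction, and 2 higher (yellow-b and kay) and 3 lower (pr, AANATL2 and yellow-f) before adjustment. The methods' t-test gave 2 higher and 1 lower before adjustment. Their median log2 fold change was 0.01, as was that of the members.

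Upstream of ple, the tyrosine supply and breakdown genes had a median of 0.24 over 4 tested genes. GstZ2, which acts late in tyrosine breakdown, differed by 0.56 on the log2 scale (adjusted p = 0.532), and Tat, the tyrosine aminotransferase, had -0.26 (adjusted p = 0.818). GstZ2 reached the 40th percentile on the Dop1R2 RNAi arrays alone, and Tat on the control arrays alone. All 5 genes of the pterin cofactor were tested, with a median of -0.30. The largest difference among them was that of pr (purple), which acts in tetrahydrobiopterin synthesis after Pu, with 76.3 and 76.6 in Dop1R2 RNAi, against 126 and 106 in controls. The groups of pr did not overlap, and its log2 fold change of -0.59 did not pass (standard error 0.23, adjusted p = 0.354). Catsup, known to restrain both tyrosine hydroxylase and GTP cyclohydrolase, had -0.44 (adjusted p = 0.477).

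Downstream of dopamine, 4 of the 10 acetylation and phenol oxidation genes with a probe set could be tested, with a median of 0.05. The arylalkylamine N-acetyltransferase speck, which makes N-acetyldopamine, differed by 0.27 on the log2 scale (adjusted p = 0.688), and its relative AANATL2 had -1.31 (adjusted p = 0.326). AANATL2 was dim, with 13.7 and 28.5 in Dop1R2 RNAi and 58.2 and 41.4 in controls, and did not overlap between groups. The haemocyte phenoloxidase PPO2 had 0.56 (adjusted p = 0.460).

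The yellow family, the relatives of y, had a median of -0.21 over 8 tested genes and its members lay on both sides of 0. The signals of yellow-b were 160.2 and 153 in Dop1R2 RNAi, against 77.8 and 75.0 in controls. Arrays within each group were close and the groups did not overlap (log2 fold change 1.04, standard error 0.22, adjusted p = 0.0977). For yellow-f, whose product converts dopachrome in the melanin pathway, the signals were 237 and 161 in Dop1R2 RNAi, against 346 and 393 in controls. This gene leaned the other way, as y did (-0.92, standard error 0.26, adjusted p = 0.226), and passed without Dop1R2 RNAi replicate 1 (-1.20, adjusted p = 0.0111). Dop1R2 RNAi replicate 2 held the lowest signal for 4 of the 8 family members, as it did for 28.8% of all tested probe sets. Control replicate 2 held the lowest signal for 3 of the 8, beside 15.9% of all tested probe sets.

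Of the other aminergic genes, few were bright enough to test. Tdc1, a tyrosine decarboxylase that makes tyramine outside the nervous system, had 0.66 (adjusted p = 0.562). Dop2R, the D2-like dopamine receptor, gave 29.5 and 32.4 in Dop1R2 RNAi, against 60.7 and 39.9 in controls, a log2 difference of -0.67 (adjusted p = 0.455). The other dopamine receptors with a probe set, Dop1R1 and DopEcR, were too dim to test.

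Among 9 tested regulators of epidermal tanning, the median was 0.01. One of them, kay, encodes Drosophila Fos, which acts on the epidermal response of Ddc and ple to wounds. It gave 89.8 and 93.3 in Dop1R2 RNAi, against 24.9 and 41.3 in controls. The groups were well apart, but the log2 fold change of 1.51 (standard error 0.32) did not pass with all 4 arrays (adjusted p = 0.0936) and passed without Dop1R2 RNAi replicate 1 (1.54, adjusted p = 0.0181). The ecdysone receptor EcR had 0.40 (adjusted p = 0.582) and ecdysis triggering hormone ETH had -0.45 (adjusted p = 0.677). Of 5 tested pigment pattern regulators, with a median of 0.22, dsx had the largest difference (0.73, adjusted p = 0.688).

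**Figure D4:**
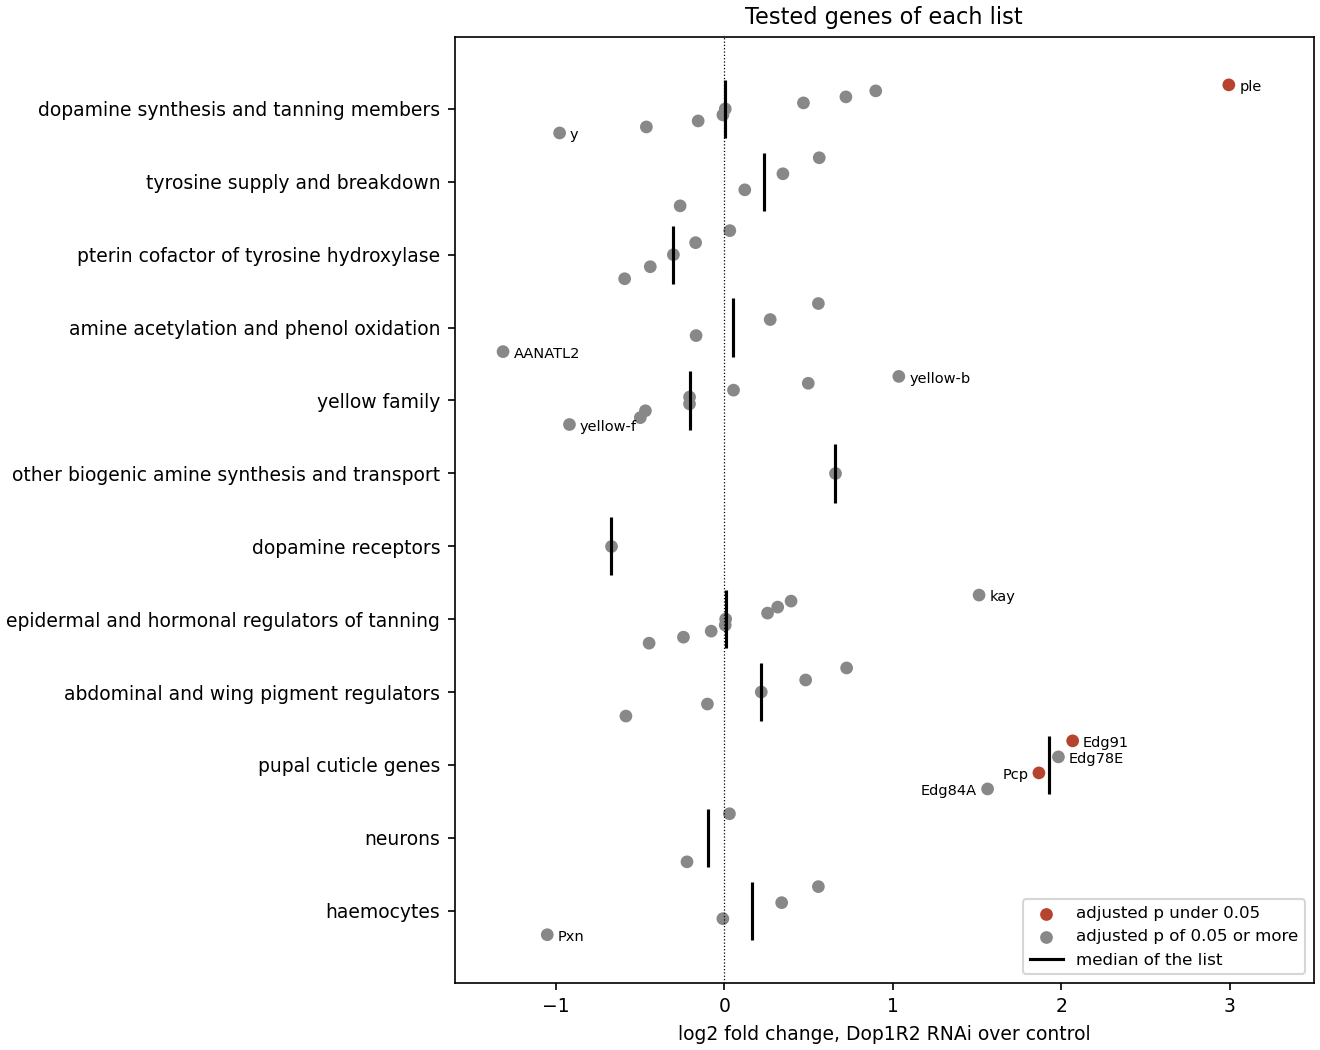
Log2 fold change, Dop1R2 RNAi over control, of each tested member and of each tested gene in the pathway lists and 3 marker lists (red, adjusted p under 0.05), with the median of each list as a bar. The 37 pathway genes hold no call, while ple at 2.996 and the pupal cuticle genes Edg91 (2.07) and Pcp (1.87) are red.

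All 4 pupal cuticle genes had higher signals on both Dop1R2 RNAi arrays than on both control arrays, as ple did. Of all tested probe sets, 21.1% did so. Limma called 2 of the 4 higher, beside 1.38% of all tested probe sets. Edg91 gave 178 and 290 in Dop1R2 RNAi, against 56.5 and 51.7 in controls, and Pcp gave 238 and 418, against 89.9 and 83.0 in controls. Both passed (log2 fold changes of 2.07 and 1.87, adjusted p of 0.0226 and 0.0407), and Edg78E (1.98, adjusted p = 0.0670) and Edg84A (1.56, adjusted p = 0.241) did not. The summed signal of the 4 genes was 690.2 and 1301 in Dop1R2 RNAi and 309 and 227 in controls, and the highest signal of each was on Dop1R2 RNAi replicate 2. Edg91 did not pass without control replicate 1 or 2 (adjusted p = 0.195 and 0.141), and nor did Pcp (0.291 and 0.186). With no filter on dim probe sets, adjusted p was 0.0532 for Edg91 and 0.0740 for Pcp, and with no trend it was 0.0517 and 0.0888. With the replicate number as a block Pcp did not pass either (adjusted p = 0.0508). Of the larval cuticle genes, Lcp65Ad gave 138 and 295 in Dop1R2 RNAi, against 76.0 and 98.5 in controls (1.22, adjusted p = 0.255), and passed without Dop1R2 RNAi replicate 1 (1.77, adjusted p = 0.000107). The summed signal of the 3 larval cuticle genes with a probe set was 192 and 351 in Dop1R2 RNAi and 143 and 131 in controls. Most of that sum was Lcp65Ad, while Lcp65Ac and the dim Lcp9 overlapped between groups. The part that a difference in stage of cuticle formation had in the ple signal was not tested.

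In the lists of larval cuticle, neurons, haemocytes, glue, fat body and epidermis, limma called 0 tested genes in either direction. Summed signals of 8 neuronal genes were 149.8 and 125 in Dop1R2 RNAi and 133 and 179.8 in controls. Among those too dim to test, elav gave 19.4 and 16.5 in Dop1R2 RNAi and 24.7 and 33.1 in controls, and para was also lower without overlap. The brighter cac probe set went the other way, with 20.6 and 14.2 in Dop1R2 RNAi and 9.38 and 10.6 in controls. The tested neuronal genes, nSyb (log2 fold change 0.03) and ChAT (-0.22), overlapped between groups. For 8 haemocyte genes the sums were 417 and 415 in Dop1R2 RNAi and 547 and 634 in controls, and 0 of the 4 tested were called. This difference lay in Pxn, since the other 7 summed to 229.7 and 245 in Dop1R2 RNAi and 188 and 254 in controls. Summed signals of 6 epidermal and chitin genes were 7708 and 8381 in Dop1R2 RNAi and 5778 and 5185 in controls, and 0 of the 6 were called by limma, with 2 higher and 1 lower before adjustment. Most of that sum was serp and verm, and the other 4 summed to 736 and 849 in Dop1R2 RNAi and 689.7 and 687 in controls. What the balance of these cell types did to the signals of ple, Ddc or Vmat was not tested.

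Across the 4 arrays, the genes whose pattern lay nearest to that of ple were CG13075, CG34330, CG14327, stv and Whamy. Nearness was the Euclidean distance between log2 signals centred on their own mean, over the same 4 arrays, so the separation of the groups that they share with ple follows from the choice. It ran from 0.36 for CG13075 to 0.70 for Whamy. CG34330 gave 2286 and 2699 in Dop1R2 RNAi, against 319.8 and 259 in controls (log2 fold change 3.11, adjusted p = 0.00145). The chaperone cofactor stv (starvin) gave 706 and 886 in Dop1R2 RNAi, against 87.2 and 86.3 in controls (3.19, adjusted p = 0.00161). CG13075 also passed (2.94, adjusted p = 0.0407), and CG14327 and Whamy, which are dim, did not (adjusted p = 0.345 and 0.327). CG13075, CG14327 and Whamy entered the test only through the Dop1R2 RNAi arrays. On both control arrays each lay below the 40th percentile, so the filter itself favoured a difference for them. The call of CG13075 was lost without Dop1R2 RNAi replicate 2 (adjusted p = 0.177), control replicate 1 (0.124) or control replicate 2 (0.131), with the replicate number as a block (0.0727) and with no filter (0.0696).

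The genes nearest to y were CG7497, CG13847, CG14770, CG7031 and CG13727, at distances of 0.08 to 0.21. All 5 had their lowest signal on Dop1R2 RNAi replicate 2 and like signals on the other 3 arrays. CG14770, for example, gave 2823 and 1116 in Dop1R2 RNAi, against 2794 and 3430 in controls, so that Dop1R2 RNAi replicate 1 lay between the controls. None of the 5 passed with all 4 arrays by limma, and 0 passed before adjustment. Their likeness to y on these arrays is what chose them.

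**Figure D5:**
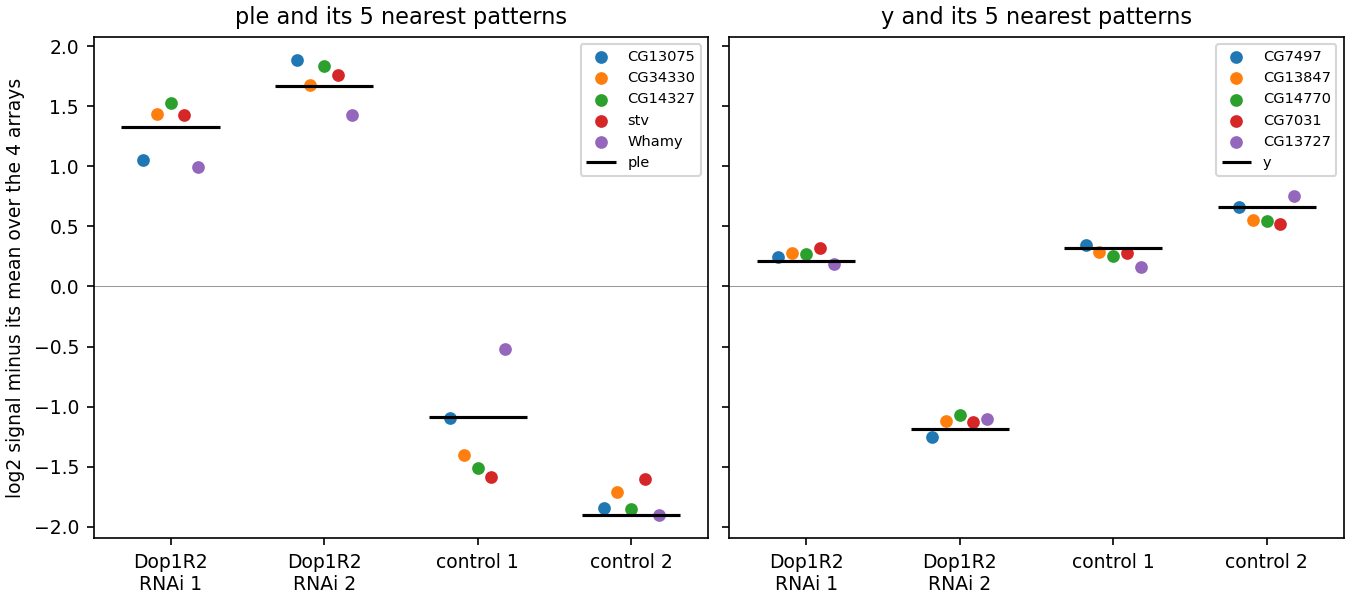
Log2 signal minus its mean over the 4 arrays for ple (left) and y (right), as black bars, and for the 5 genes nearest to each, as points. The points were chosen for lying near the bars on these 4 arrays, those of ple being high on both Dop1R2 RNAi arrays and those of y low on Dop1R2 RNAi replicate 2.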

How the data were processed

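The authors deposited a linear intensity for each probe set on each array. They were made with Affymetrix MAS5, which the submitters' processing notes name, and each array has a trimmed mean of 100.02. The genome build was not given in the sources used here. Groups were taken from the labels. Of 14010 probe sets, 44 controls of the array maker were left out. Log2 was taken of the signals as they stand. The test kept the 8749 of 13966 probe sets that reached the 40th percentile of an array on 2 or more of the 4. Groups were compared with limma 3.58.1 under R 4.3.3, through lmFit and a trended eBayes (2 residual and 4.95 prior degrees of freedom). P-values were adjusted by the Benjamini-Hochberg method over all kept probe sets, with a threshold of 0.05. An exact permutation test of 1 gene cannot go below 0.333 here (two-sided). Precision is limited by having 2 arrays a group and by dim signals, and MAS5 intensities carry no counts. SD values are between the 2 arrays of a group.

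Members and lists were matched by current symbol, synonym or CG number to probe sets with 1 gene name (12442, while 327 carry several and 1197 none), and a listed gene with several probe sets was read from its brightest. Names and neighbours, and nothing else, came from the reference annotation, Release 6 plus ISO1 MT. Named were all members, up to 3 tested genes of each pathway list with the largest change, and the 5 genes nearest in pattern to ple and to y. Others, such as Catsup, speck, PPO2, EcR and marker genes, were named for their role or after their values were seen. The members and lists were chosen with earlier results of these data known. The fit was tested on simulated data. The alternatives were other filters, a floor, 32 added, other normalizations, no trend, the replicate number as a block, the methods' t-test and each array left out. Python 3.11.15 with pandas 2.3.3 and matplotlib 3.10.9 made summaries and plots.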

Additional observations from a re-analysis of the deposited data

How the results depend on the processing

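The log2 fold change of ple passed in 11 of 13 alternatives, between 2.21 and 3.40. It did not pass in the methods' t-test after adjustment (2.996, adjusted p = 0.512) or without control replicate 2 (2.59), and it ranged from 2.59 to 3.40 as each array was left out. Member counts were 1 higher and 0 lower, 0 higher in the methods' t-test, and 0 to 1 higher and 0 to 1 lower with an array left out. Over all probe sets, 121 were called higher and 9 lower, against 75 and 3 with no filter, 0 and 0 in the t-test (467 and 323 before adjustment), and 27 to 357 higher and 0 to 295 lower with an array left out. Pathway genes called were 0, and 0 to 1 higher and 0 to 1 lower with an array left out. With the replicate number as a block, 131 were called higher and 10 lower, ple passed (2.996, adjusted p = 0.0196) and so did no other member. Deviations of the replicate 1 arrays from their group means correlated at 0.151 over probe sets. With 2 arrays a group, those of replicate 2 are their mirror image and add nothing. No source says that a number marks a shared batch. With 2 pools in each group, limma's p-values rest on a spread borrowed from other probe sets, and dim members (DAT and 1 Vmat probe set) were not tested.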

Other observations

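Of 23 genes of the wider pathway with a probe set too dim to test, 7 did not overlap between groups. Both Dop1R2 RNAi arrays were higher for 4 of these and lower for 3. Of all tested probe sets, which are brighter than these, 45.1% did not overlap. The signals of yellow-g2, a yellow family gene, were 20.5 and 20.7 in Dop1R2 RNAi pupae, against 6.78 and 4.54 in controls. Mco1, a multicopper oxidase, gave 6.24 and 20.4 in Dop1R2 RNAi, against 3.75 and 3.39 in controls. CCAP, a neuropeptide of ecdysis, gave 3.38 and 5.67 in Dop1R2 RNAi, against 0.81 and 0.854 in controls. The other gene on the higher side was prt, a vesicular transporter (log2 difference 0.55). On the lower side, yellow-f2 gave 11.3 and 19.4 in Dop1R2 RNAi, against 47.1 and 29.1 in controls, and AANATL7 and PPO1 had log2 differences of -0.46 and -0.15. Dim signals can differ several-fold between arrays of 1 group, as the 2 control arrays did for the dimmer Vmat probe set (12.5-fold).

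Of the epidermal genes, serp and verm, which encode chitin deacetylases, were bright. The signals of serp (149070_at) were 3626 and 3705 in Dop1R2 RNAi, against 2516 and 2149 in controls (log2 fold change 0.66, limma, adjusted p = 0.177). A dimmer serp probe set, 149071_at, gave 1005 and 1032 in Dop1R2 RNAi, against 470 and 562 in controls (0.99, adjusted p = 0.0927). The signals of verm were 3346 and 3828 in Dop1R2 RNAi, against 2573 and 2349 in controls (0.54, adjusted p = 0.255). The groups did not overlap for either gene, and limma called neither with all 4 arrays. Without Dop1R2 RNAi replicate 1 the log2 fold changes were 0.67 for serp (149070_at) and 0.64 for verm. In the same list mwh, which controls wing hair number, went the other way, with 9.86 and 42.0 in Dop1R2 RNAi, against 87.2 and 84.5 in controls (-2.08, adjusted p = 0.248). It was called without Dop1R2 RNAi replicate 2 (-3.12, adjusted p = 5.52e-08). Pxn, the haemocyte peroxidasin, had 187 and 169.8 in Dop1R2 RNAi, against 359 and 380.0 in controls (-1.05, adjusted p = 0.0926), and was called only without Dop1R2 RNAi replicate 1 (adjusted p = 0.0200).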
